A study of Mus musculus with 9 samples.

Results

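Interferon-stimulated genes are the genes that a cell switches on when an interferon binds its receptor. A list of 47 of them was followed in RNA sequencing of sorted mouse lung neutrophils, 40 listed as type I interferon genes and 7 as interferon-inducible GTPases (Gbp, Irgm, *Igtp* and Iigp genes). Members were matched by gene symbol and chosen with earlier results of these data known. Values were found for 45 of the 47 members, among 18325 genes with values and 22064 genes listed in all, and *Mx1* and *Mx2* were not analysed here. The test covered 44 members, 37 type I genes and all 7 GTPases. *Oas1a* was left untested by the filter on low counts, with means of 0.106, 0.367 and 0.458 counts scaled to a common library size (CPM) in the 3 groups.

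The study asked how neutrophil subsets of the lung differ as breast cancer spreads there. Tumor-bearing BALB/c females had received 4T1-LM3 cells, a mouse mammary carcinoma line with high lung metastasis, in the mammary fat pad, and were taken at the macrometastatic stage. From their lungs CD45+ Ly6g-high neutrophils (Ly6Ghi) and CD45+ Ly6g-low neutrophils (Ly6Glow) were sorted. CD45+ Ly6g-high neutrophils from lungs of BALB/c females without tumor cells formed the normal lung group (NL), and each group had 3 libraries. Any pooling of animals is not given in the sources used here. No Ly6g-low group from normal lung was used, so in Ly6Glow against NL the sort gate and the tumor cannot be told apart. The replicates are labelled as separate biological samples with no animal named, so the p-values cover only the spread between these libraries, which may be technical.

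Type I interferons act on nearly all cells through the receptor chains *Ifnar1* and *Ifnar2*, and the kinases *Jak1* and *Tyk2* then activate signal-transducing factors such as *Stat2*. *Stat2* and *Irf9* are parts of the complex ISGF3, which binds interferon-stimulated response elements (ISRE) near antiviral genes, whereas interferon gamma acts through gamma-activated sites (GAS) and strongly induces the Gbp and Irg GTPases. Neutrophils carry both receptor types, and an interferon-responding neutrophil state is commonly seen in blood and inflamed tissue.

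The authors deposited an estimated count and a length-scaled value, FPKM (fragments per kilobase of transcript and per library size), for each gene and library. The 9 libraries held 15267177 to 17841807 estimated counts. CPM values are scaled by TMM, a factor per library that allows for differences in composition, and serve for comparing a gene between libraries. FPKM values are used where levels of different genes are set side by side. Log2 differences given on FPKM are those of limma on log2(FPKM + 1) unless another scale is named. A gene was called higher or lower when its edgeR quasi-likelihood adjusted p was at most 0.05 and its log2 fold change was over 0.58 in size, with p adjusted over 14108 tested genes. An exact permutation test of 3 against 3 libraries cannot go below p = 0.1 and was not used.

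The NL libraries stood apart from the other 6 in more than interferon genes. Their TMM factors were 1.30, 1.32 and 1.31, against 0.803 to 0.950 in the tumor-bearing groups. *Ly6g*, the gene of the sorting antigen, averaged 119 ± 1.40 CPM in NL, 374 ± 10.8 in Ly6Ghi and 394 ± 9.32 in Ly6Glow (SD, n = 3). Its log2 difference between the sorted tumor-lung groups was 0.076 and was not called, and it turned to −0.16 on the FPKM scale. *Ptprc*, which encodes CD45, was present at 1509, 2429.8 and 3556 CPM in NL, Ly6Ghi and Ly6Glow. The 18 neutrophil markers, led by the calcium-binding protein gene *S100a9*, summed to 29188, 28829 and 28929.9 CPM in NL, 112149, 109623 and 110292 CPM in Ly6Ghi and 97783, 99636 and 98959 CPM in Ly6Glow, and 14 of 18 were called higher in Ly6Ghi and 15 of 18 in Ly6Glow against NL.

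Markers of other lung cells were higher in NL for most lists. Of all tested genes, the share to set beside the counts of these lists, 36.6% were called lower in Ly6Ghi and 40.8% in Ly6Glow against NL, and 26.3% and 28.7% higher. The 13 epithelial and tumor cell markers, led by the surfactant gene *Sftpc*, summed to 1752, 1601 and 1735 CPM in NL, 139.5, 141 and 133 CPM in Ly6Ghi and 138, 138 and 135 CPM in Ly6Glow, and 13 of 13 were called lower in each tumor-lung group. Endothelial markers, led by *Pecam1*, summed to 1133, 1046 and 1117 CPM in NL, 159, 154 and 156 CPM in Ly6Ghi and 196, 196 and 188 CPM in Ly6Glow (8 of 8 lower in each), and fibroblast markers, led by *Fn1*, to 1389, 1289 and 1357 CPM in NL, 469, 468 and 466 CPM in Ly6Ghi and 296, 286 and 281 CPM in Ly6Glow (8 of 8 lower in each). Monocyte and macrophage markers, led by *Csf1r*, summed to 1715, 1647 and 1725 CPM in NL, 871, 859 and 871 CPM in Ly6Ghi and 818, 810.2 and 792 CPM in Ly6Glow, with 10 and 11 of 15 called lower in Ly6Ghi and Ly6Glow. The spread between libraries of a group was small beside these gaps. Alveolar macrophage markers, led by *Chil3*, summed to 2599, 2601 and 2583 CPM in NL, 1766, 1712 and 1723 CPM in Ly6Ghi and 399.9, 419 and 407 CPM in Ly6Glow (12 and 14 of 15 lower). Plasmacytoid dendritic cell markers, the list of the best known interferon-producing cell, were led by *Runx2* and summed to 142, 152 and 142 CPM in NL, 99.2, 101 and 98.2 CPM in Ly6Ghi and 124, 113 and 118 CPM in Ly6Glow (4 of 7 tested lower in each). Conventional dendritic cell markers, led by *Ccr7*, summed to 53.9, 53.6 and 59.7 CPM in NL, 21.8, 20.2 and 20.7 CPM in Ly6Ghi and 21.6, 20.4 and 19.2 CPM in Ly6Glow (7 of 8 lower in each). These lists were highest in the 3 NL libraries.

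The lymphoid and granulocyte lists were smaller in sum than the epithelial list of NL. T and NK cell markers, led by *Cd3d*, summed to 109.5, 108 and 108 CPM in NL, 66.1, 62.4 and 64.6 CPM in Ly6Ghi and 43.7, 43.8 and 42.3 CPM in Ly6Glow (10 and 12 of 13 tested lower). B cell markers, led by *Jchain*, summed to 103, 111 and 106 CPM in NL, 195, 187 and 181 CPM in Ly6Ghi and 54.5, 56.7 and 57.8 CPM in Ly6Glow, and eosinophil, basophil and mast cell markers, led by *Siglecf*, to 45.6, 45.9 and 43.0 CPM in NL, 112, 113 and 105 CPM in Ly6Ghi and 52.4, 52.0 and 50.8 CPM in Ly6Glow. Both sums were highest in Ly6Ghi, where 4 of 7 B cell markers and 8 of 9 tested eosinophil, basophil and mast cell markers were called higher than in NL. Erythroid and platelet markers, led by *Itga2b*, summed to 36.6, 33.6 and 33.1 CPM in NL, 7.50, 7.38 and 6.93 CPM in Ly6Ghi and 7.72, 8.13 and 8.00 CPM in Ly6Glow (5 of 6 tested lower in each). Each marker with values had a count in at least 1 library, while *Krt5* and *Hba-a2* had none in Ly6Ghi or Ly6Glow, *Hbb-bt* none in NL or Ly6Ghi, and *Hbb-b1* none in Ly6Glow. Between the tumor-lung groups markers of several cell types were called lower in Ly6Glow, where 15.9% of all genes were: 7 of 7 B cell, 8 of 9 eosinophil, basophil and mast cell, 11 of 15 alveolar macrophage, 7 of 13 T and NK cell, 5 of 15 monocyte and macrophage, 3 of 13 epithelial and tumor cell, 2 of 8 conventional dendritic cell, 1 of 8 fibroblast and 1 of 6 erythroid and platelet markers. Of the neutrophil markers 7 were called higher and 5 lower there. *Siglecf* and *Mrc1* each stand in more than 1 list. Most markers of resident lung cells and most interferon-stimulated genes were highest in the same group, NL, and the part of those cells in the member results was not tested. In sorted bulk RNA, fewer cells of a type and less RNA per cell cannot be told apart.

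**Figure D1:**
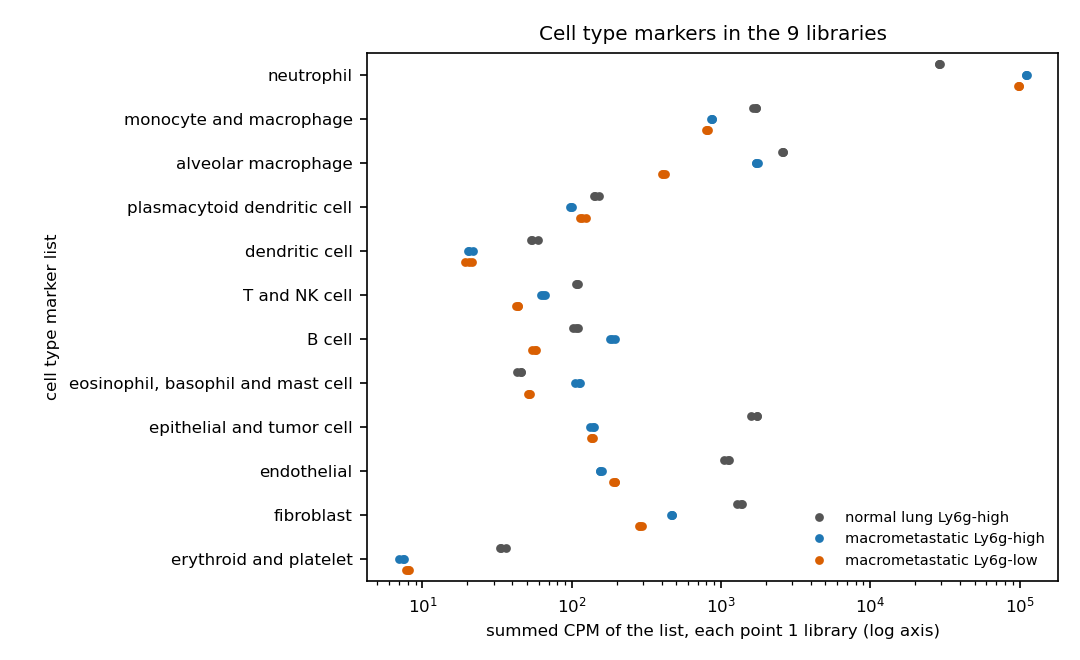
Summed CPM of each cell type marker list (log axis, CPM), with each point 1 of the 9 libraries and colors for NL, Ly6Ghi and Ly6Glow. Epithelial, endothelial and fibroblast sums are highest in the 3 NL libraries, and the neutrophil sum is lowest there.

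Most interferon-stimulated genes were lowest in Ly6g-high neutrophils of the macrometastatic lung, intermediate in Ly6g-low neutrophils and highest in Ly6g-high neutrophils of the normal lung. That order of mean CPM held for 19 of the 37 type I genes and for all 7 GTPases. Another 4 type I genes (*Bst2*, *Cmpk2*, *Ifi44* and *Ifit2*) were highest in NL and lowest in Ly6Glow, and 3 (*Irf1*, *Parp9* and *Rtp4*) were highest in Ly6Glow and lowest in Ly6Ghi. The remaining 11 were lowest in NL, 10 of them highest in Ly6Glow and 1, *Ifitm6*, highest in Ly6Ghi. These orders rest on the TMM scale: on FPKM, Ly6Glow turned below NL for *Irf1*, *Parp9*, *Rtp4*, *Ddx58*, *Dhx58*, *Irf9*, *Oas2*, *Oas3* and *Samhd1*, and below Ly6Ghi for *Ifi35*, *Ddx58*, *Dhx58*, *Ifitm3*, *Eif2ak2* and *Iigp1*. Ly6Ghi turned below NL on FPKM for *Ddx58*, *Irf9*, *Oas2*, *Oas3*, *Samhd1* and *Trim30a*, and for *Irf9*, *Oas2*, *Oas3* and *Samhd1* with upper-quartile scaling too, where *Irf1* turned below NL in Ly6Glow. With DESeq2 size factors, *Bst2* turned to higher in Ly6Glow than in Ly6Ghi and *Irf7* to higher in Ly6Glow than in NL. A filter of at least 10 counts in every library turned 4 members in Ly6Ghi against NL and 1 in Ly6Glow against NL. Leaving out NL 2 turned 1 member in Ly6Ghi against NL. Between the tumor-lung groups, 1 member turned without Ly6Ghi 1 and 1 without Ly6Glow 1.

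Ly6Ghi against NL asks how Ly6g-high neutrophils of a lung with macrometastases differ from those of a healthy lung. The RNA-binding IFIT genes, the antiviral enzyme gene *Rsad2*, *Isg15* and the GTPase genes were far lower in the tumor-bearing lung, and the membrane protein genes *Ifitm1*, *Ifitm2*, *Ifitm3* and *Ifitm6* were higher. *Rsad2* averaged 252 ± 10.7 CPM in NL and 9.08 ± 0.938 in Ly6Ghi, and *Ifitm6* 187 ± 4.20 and 2278 ± 29.4 (SD, n = 3). Called lower were 23 of 37 type I genes (36.6% of all tested genes were), and 5 were called higher (26.3% of all). The type I median was a log2 fold change of −1.01, where the median of all tested genes was −0.088. All 7 GTPases were called lower, with a median of −2.68. No GTPase was called higher, and that count was 0 by edgeR, at an unadjusted p under 0.05, by DESeq2 and by limma on FPKM. Libraries of the groups did not overlap for 42 of the 44 members, 9 above and 33 below, beside 85.2% of all tested genes.

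Ly6Glow against NL sets the Ly6g-low neutrophils of the metastatic lung beside the same healthy reference. IFIT genes, *Rsad2*, *Isg15* and the GTPases were lower here too, while the antiviral effector *Samhd1*, the helicases *Dhx58* and *Ddx58* and the factor *Irf9* stood above NL on the TMM scale but below it on FPKM. *Isg15* averaged 217 ± 17.1 CPM in NL and 105 ± 8.14 in Ly6Glow, and *Ifitm1* 209.6 ± 14.4 and 2406 ± 109 (SD, n = 3). Called lower were 15 of 37 type I genes (40.5%, where 40.8% of all tested genes were), and 9 were called higher (28.7% of all). For type I genes as a list this is near the background on the TMM scale, and their median was −0.34 against −0.16 over all genes. On log2(FPKM + 1), 23 were called lower, where 45.6% of all genes were, and 4 higher (7.97% of all). The medians on that scale were −0.96 for type I genes and −0.49 over all genes. Of the GTPases, 7 of 7 were called lower with a median of −1.87 on the TMM scale. Their count called higher was 0 by edgeR, at an unadjusted p under 0.05, by DESeq2 and by limma on FPKM. Members whose groups did not overlap numbered 43 of 44, 14 above and 29 below, beside 86.8% of all genes. Each group enters 2 of the 3 comparisons, so these share libraries and their values are set side by side with no test between them.

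Ly6Glow against Ly6Ghi compares the subsets within the tumor-bearing lung. Interferon-stimulated genes were mostly higher in the Ly6g-low neutrophils, led by *Isg15*, *Gbp2* and *Rsad2*. *Isg15* averaged 36.6 ± 1.00 CPM in Ly6Ghi and 105 ± 8.14 in Ly6Glow, and *Gbp2* 84.8 ± 1.60 and 195 ± 2.88 (SD, n = 3). Called higher were 22 of 37 type I genes, where 9.29% of all tested genes were, and 5 of 7 GTPases. Of these 27 calls, 27 were kept in a fit without the NL libraries, but 7 on log2(FPKM + 1): *Isg15*, *Isg20*, *Rsad2*, *Rtp4*, *Oasl2*, *Ifitm1* and *Gbp2*. The other 20 stayed above 0 there, at 0.24 (*Ifi208*) to 0.57 (*Gbp7*). Called lower were 0 type I genes by edgeR (15.9% of all genes were), 0 by DESeq2 and 0 by limma on log2(FPKM + 1). On log2(FPKM + 0.1) there were 2 (*Cmpk2* and *Ifit2*), and without Ly6Glow 3 the edgeR count was 1 (*Ifit2*, −0.59). With no fold-change threshold, 3 were lower at an unadjusted p under 0.05 (*Cmpk2*, *Ifit2* and *Ifitm6*), and these also passed the adjusted p. For GTPases the count called lower was 0 by edgeR, at an unadjusted p under 0.05, by DESeq2 and by limma on FPKM. Medians were 0.62 for type I genes and 0.81 for GTPases, against −0.041 over all genes. Groups did not overlap for 42 of 44 members, 38 above and 4 below, where 62.1% of all genes did not.

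**Figure D2:**
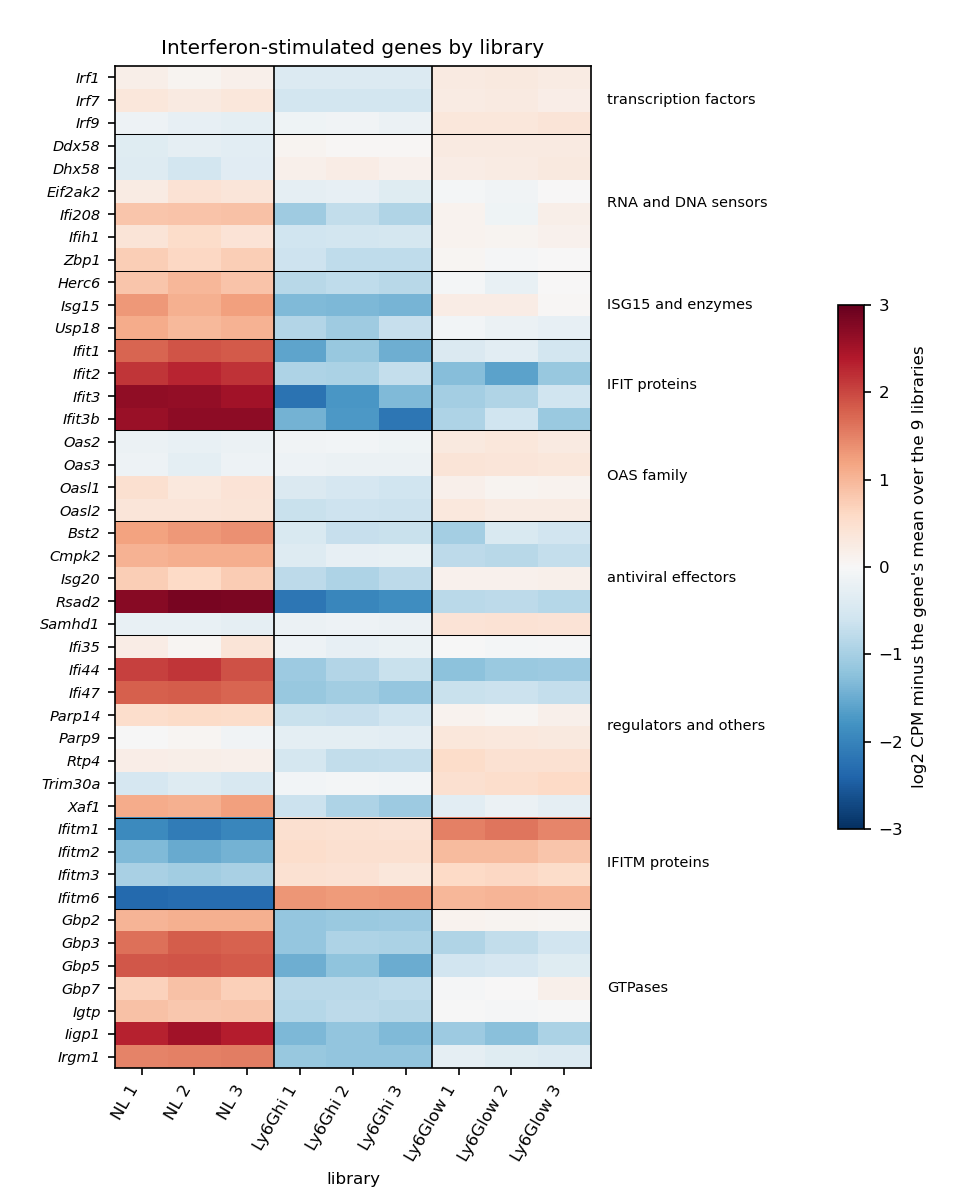
Heat map of the tested members (vertical axis, grouped by role) in the 9 libraries (horizontal axis), colored by log2 CPM minus the gene's mean over the libraries. The IFITM genes are lowest in the NL libraries, and the IFIT and GTPase genes are highest there.

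Member calls and the direction of some values depended on the settings. A log2 threshold of 1 ended 5, 11 and 22 member calls in Ly6Ghi against NL, Ly6Glow against NL and Ly6Glow against Ly6Ghi, more than any scaling. Of all called genes, 41.8% were higher in Ly6Ghi against NL, 41.3% in Ly6Glow against NL and 36.8% in Ly6Glow against Ly6Ghi. On log2(FPKM + 1) by limma these shares were 21.8%, 14.9% and 14.3%, and the median of all genes shifted by −0.24, −0.33 and −0.093. With a pseudocount of 0.1 the shifts were −0.43, −0.65 and −0.20, and the shares 20.8%, 14.4% and 12.5%. FPKM divides by the library total alone and takes no account of composition. Upper-quartile scaling of counts shifted the median by −0.19 and −0.19 in the comparisons with NL. This scaling, and a filter of at least 10 counts in every library, ended the higher calls of *Ddx58*, *Dhx58*, *Irf9* and *Samhd1* in Ly6Glow against NL and of *Dhx58* in Ly6Ghi against NL. Both added lower calls for *Isg20*, *Parp14* and *Eif2ak2* in Ly6Glow against NL (−0.76, −0.63 and −0.60 with upper-quartile scaling) and for *Ifi35* and *Irf1* in Ly6Ghi against NL (−0.61 and −0.75).

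Set against all genes on the same scale, most medians moved less. The type I median minus the median of all genes was −0.92 on TMM and −1.01 on log2(FPKM + 1) for Ly6Ghi against NL. For Ly6Glow against NL it was −0.18 and −0.47, and for Ly6Glow against Ly6Ghi 0.66 and 0.48. On log2(FPKM + 0.1) these differences were −0.95, −0.22 and 0.62 in the same order of comparisons. GTPases kept the signs of their medians on both scales. Their median minus that of all genes was −2.59 and −2.63 for Ly6Ghi against NL, −1.71 and −2.01 for Ly6Glow against NL, and 0.85 and 0.68 for Ly6Glow against Ly6Ghi (−2.59, −1.73 and 0.81 on log2(FPKM + 0.1)). On log2(FPKM + 1) the calls became 26 lower and 4 higher of 37 type I genes in Ly6Ghi against NL, 23 lower and 4 higher in Ly6Glow against NL, and 6 higher in Ly6Glow against Ly6Ghi, where 1 GTPase in place of 5 was called higher. All tested genes on that scale were called lower and higher at 36.4% and 10.1%, 45.6% and 7.97%, and 13.6% and 2.27% in the 3 comparisons. The FPKM scale, in Ly6Glow against NL, ended the higher calls of *Ddx58*, *Dhx58*, *Irf9*, *Samhd1* and *Trim30a* and added lower calls for *Isg20* (−1.24), *Ifih1* (−0.96), *Ifi35* (−0.90), *Irf7* (−0.77), *Oasl1* (−0.97), *Oasl2* (−0.79), *Parp14* (−1.11) and *Eif2ak2* (−0.96). In Ly6Ghi against NL it ended the call of *Dhx58* and added lower calls for *Ifi35* (−0.83), *Irf1* (−1.01) and *Parp9* (−0.73).

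**Figure D3:**
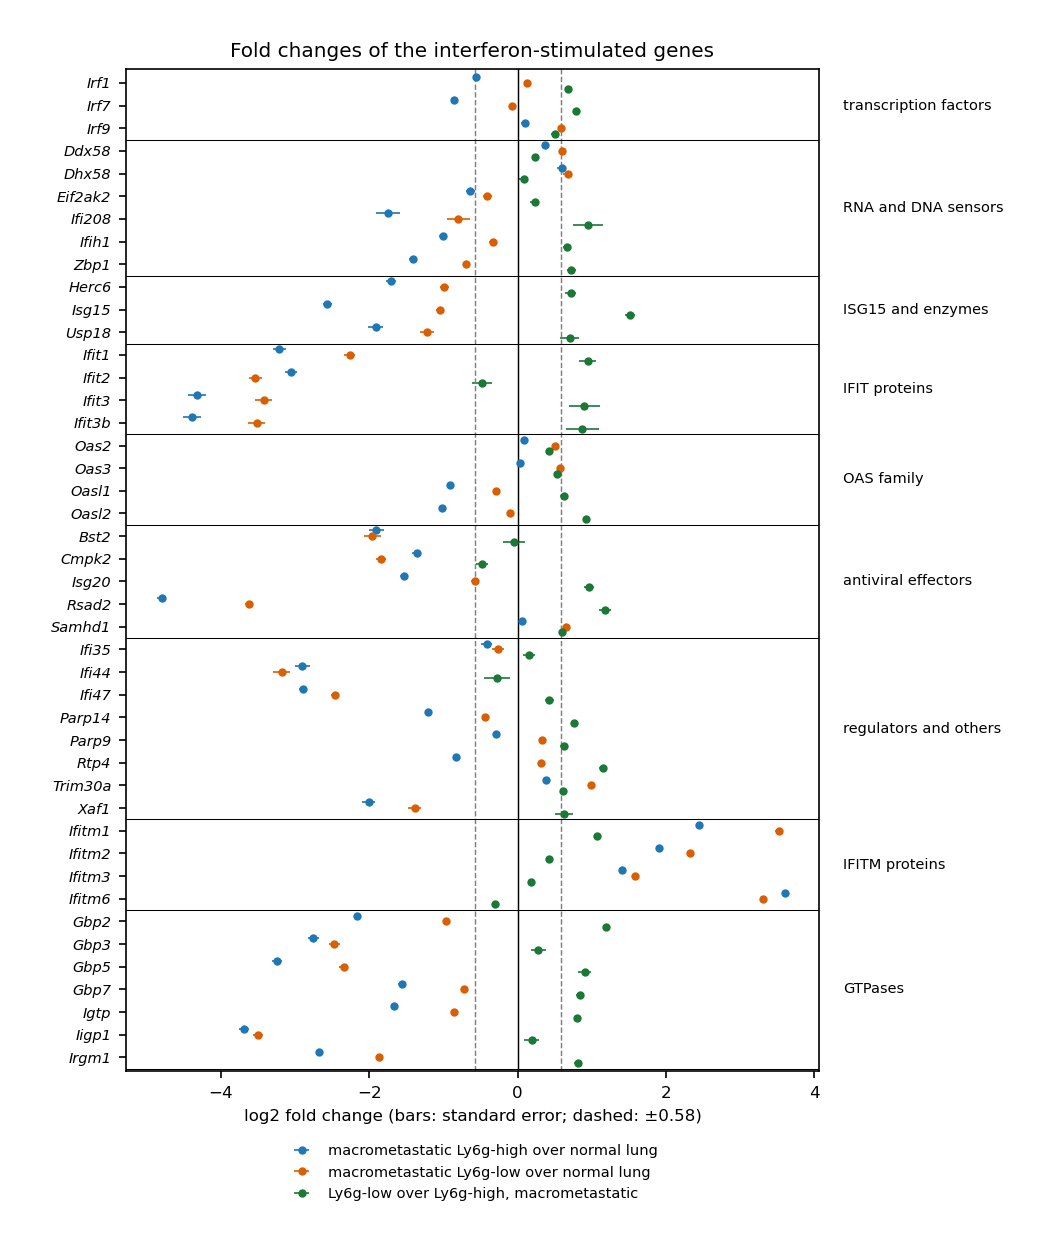
Log2 fold changes with standard errors (horizontal axis) of the 44 tested members (vertical axis, by role) in the 3 comparisons, with dashed lines at ±0.58. IFIT genes and GTPases lie below 0 in both comparisons with NL and IFITM genes above it; on FPKM, *Ifitm3* and *Iigp1* in Ly6Glow against Ly6Ghi turn below 0.

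What the members share in sequence was looked for in their promoters, taken from RefSeq (GRCm38.p6, the mm10 assembly) as 250 bases before to 50 after the transcription start. Such a window was found for 37 members (44 promoters). Promoters of *Usp18*, *Mx1*, *Mx2*, *Rtp4*, *Parp9*, *Parp14*, *Dhx58*, *Zbp1*, *Oas2* and *Iigp1* were not analysed here. The ISRE core (GAAA, NN and GAAA in a row, N being any base) was searched on both strands, and 22 of the 44 promoters, of 21 genes, held it, where 3.44% of 32851 RefSeq promoters of that length did. The GAS core TTCNNNGAA was in 13 of 44 (29.5%), beside 8.30% of all. By gene, 15 of 31 type I members and 6 of 6 GTPases held an ISRE core, and 10 and 3 a GAS core. A match describes these letters only, and 7 members held both motifs and 10 neither.

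Against NL, the 3 transcription factor genes of the response had smaller differences than the IFIT and GTPase genes. *Irf7*, which drives further interferon production, stood at 249.9, 239.8 and 249.97 CPM in the NL libraries, 136, 135 and 136 CPM in the Ly6Ghi libraries and 234, 240.4 and 226 CPM in the Ly6Glow libraries. The Ly6Ghi libraries were lowest without overlap, while those of Ly6Glow and NL overlapped. Its log2 fold change was −0.86 (edgeR adjusted p = 1.0e-15, SE 0.036) in Ly6Ghi against NL and 0.78 (edgeR adjusted p = 6.0e-14, SE 0.036) in Ly6Glow against Ly6Ghi. *Irf7* stood at −0.078 in Ly6Glow against NL and was not called, but at 0.012 with DESeq2 size factors and −0.77, called lower, on FPKM. *Irf1*, a factor induced mainly by interferon gamma, was called higher in Ly6Glow against Ly6Ghi at 0.68 (edgeR adjusted p = 5.8e-14, SE 0.032), and its −0.56 in Ly6Ghi against NL was not called, but was with upper-quartile scaling (−0.75) and on FPKM (−1.01). Against NL, Ly6Glow stood at 0.13 for *Irf1*, not called and turning to −0.062 with upper-quartile scaling and −0.57 on FPKM. Between the tumor-lung groups, the higher calls of *Irf7* (0.55) and *Irf1* (0.45) ended on FPKM. *Irf9*, the DNA-binding subunit of ISGF3, was called higher in Ly6Glow against NL at 0.59 (edgeR adjusted p = 1.3e-11, SE 0.042), a call that ended without NL 3 (0.56) or with upper-quartile scaling (0.40) and a direction that turned to −0.11 on FPKM. By summed FPKM the 3 factors reached 588 in NL, 286 in Ly6Ghi and 391 in Ly6Glow, and by summed CPM 901, 616 and 986, so that Ly6Glow lay below NL on the first scale and above it on the second.

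Among the 6 sensors of foreign RNA and DNA, 4 were called lower and 1 higher in Ly6Ghi against NL, 2 lower and 2 higher in Ly6Glow against NL, and 3 higher in Ly6Glow against Ly6Ghi. Of all tested genes 36.6% were called lower and 26.3% higher in the first comparison, 40.8% and 28.7% in the second and 9.29% higher in the third, and for sensors on log2(FPKM + 1) the counts were 4 lower and 0 higher against NL in both groups, and 0 higher in the third. *Zbp1*, a receptor for Z-form nucleic acids, was called in each of the 3 comparisons, at −1.41 (edgeR adjusted p = 1.1e-16, SE 0.052), −0.69 (edgeR adjusted p = 2.0e-11, SE 0.050) and 0.72 (edgeR adjusted p = 4.4e-10, SE 0.057) in that order. *Ifi208*, of the DNA-binding Ifi200 family, was called in each as well, at −1.75, −0.80 and 0.95. The 3 RNA helicases did not move as a block. *Ifih1*, which encodes the long-RNA sensor MDA5, was called lower in Ly6Ghi against NL at −1.01 and higher in Ly6Glow against Ly6Ghi at 0.67, and in Ly6Glow against NL it was −0.34 and not called. *Ddx58*, which encodes RIG-I, was 0.60 and called higher in Ly6Glow against NL, a call that ended without NL 1 (0.57) or with upper-quartile scaling (0.41) and a direction that turned to −0.093 on FPKM. *Dhx58*, which encodes the regulator LGP2, was called higher in Ly6Ghi against NL at 0.59, and the call ended without Ly6Ghi 2 (0.57) or NL 2 (0.54), with upper-quartile scaling (0.40) and on FPKM (0.12). The *Dhx58* call in Ly6Glow against NL was 0.68, but ended with upper-quartile scaling (0.49) and turned to −0.021 on FPKM. *Eif2ak2*, the kinase PKR that halts translation on double-stranded RNA, was called lower at −0.64 in Ly6Ghi against NL.

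*Isg15*, which encodes a ubiquitin-like protein joined to target proteins, and the genes of the enzymes that handle it were called in all 3 comparisons. *Isg15* stood at 231, 198 and 221 CPM in the NL libraries, 37.5, 36.7 and 35.5 CPM in the Ly6Ghi libraries and 110.1, 109 and 95.4 CPM in the Ly6Glow libraries. The 3 groups were fully separated, with NL highest and Ly6Ghi lowest. Its log2 fold change was −2.56 (edgeR adjusted p = 6.7e-20, SE 0.061) in Ly6Ghi against NL, −1.05 (edgeR adjusted p = 6.6e-14, SE 0.055) in Ly6Glow against NL and 1.52 (edgeR adjusted p = 2.0e-14, SE 0.066) in Ly6Glow against Ly6Ghi, the largest of any member in the last. *Usp18*, which encodes the protease that removes ISG15 from proteins and restrains the receptor, stood at −1.92, −1.22 and 0.70. *Herc6*, which encodes the main ISG15 ligase of the mouse, stood at −1.71, −0.99 and 0.72. In Ly6Glow against Ly6Ghi the calls of *Usp18* (0.35) and *Herc6* (0.39) ended on FPKM. Of all tested genes, 36.6% and 40.8% were called lower in Ly6Ghi and Ly6Glow against NL, and 9.29% higher in Ly6Glow against Ly6Ghi. The *Isg15* promoter is shown because this gene is among those always given with values per library. It led the rises in Ly6Glow against Ly6Ghi. The window is chr4:156200769-156201068 on the minus strand of GRCm38.p6 and covers the upstream region and first bases of the transcript (RefSeq), printed 5′ to 3′ along the gene, and capitals mark 3 overlapping ISRE cores.
Isg15: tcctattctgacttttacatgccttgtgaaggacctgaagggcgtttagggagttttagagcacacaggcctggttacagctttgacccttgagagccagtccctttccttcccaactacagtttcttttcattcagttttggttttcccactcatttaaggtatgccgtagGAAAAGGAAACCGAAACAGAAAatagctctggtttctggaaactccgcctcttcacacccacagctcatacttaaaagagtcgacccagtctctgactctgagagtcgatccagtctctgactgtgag

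The 4 IFIT genes, whose proteins bind foreign RNA and block its translation, were the family most reduced in the tumor-bearing lung. *Ifit1* stood at 55.0, 60.6 and 58.7 CPM in the NL libraries, 5.41, 7.38 and 5.94 CPM in the Ly6Ghi libraries and 12.0, 13.1 and 11.1 CPM in the Ly6Glow libraries. All 6 tumor-lung libraries lay far below the NL libraries, and the Ly6Glow libraries lay above those of Ly6Ghi. Its log2 fold change was −3.21 (edgeR adjusted p = 3.1e-19, SE 0.084), −2.27 (edgeR adjusted p = 3.2e-17, SE 0.078) and 0.95 (edgeR adjusted p = 3.9e-07, SE 0.12) in Ly6Ghi against NL, Ly6Glow against NL and Ly6Glow against Ly6Ghi. *Ifit3* stood at 36.6, 35.5 and 32.9 CPM in the NL libraries, 1.23, 1.71 and 2.29 CPM in the Ly6Ghi libraries and 2.84, 3.09 and 3.81 CPM in the Ly6Glow libraries. Its near copy *Ifit3b* stood at 27.0, 28.8 and 28.8 CPM in the NL libraries, 1.66, 1.36 and 0.990 CPM in the Ly6Ghi libraries and 2.36, 2.94 and 2.06 CPM in the Ly6Glow libraries. Both were again split into NL and the rest without overlap, and both share so much sequence that counts may be divided between them. In Ly6Ghi against NL they reached −4.32 and −4.39, and in Ly6Glow against Ly6Ghi they were called higher at 0.90 and 0.87. *Ifit2* stood at 55.1, 61.1 and 55.9 CPM in the NL libraries, 6.58, 6.43 and 7.61 CPM in the Ly6Ghi libraries and 5.12, 4.06 and 5.64 CPM in the Ly6Glow libraries. It was the exception of the family, lowest in Ly6Glow, at −3.54 (edgeR adjusted p = 2.2e-19, SE 0.092) against NL. Its difference of −0.48 in Ly6Glow against Ly6Ghi was not called, but was without Ly6Glow 3 (−0.59).

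Antiviral effector enzymes and membrane proteins split by gene. *Rsad2*, which encodes viperin, an enzyme that makes a chain-terminating nucleotide, stood at 241, 261 and 256 CPM in the NL libraries, 8.06, 9.27 and 9.90 CPM in the Ly6Ghi libraries and 20.5, 20.997 and 20.0 CPM in the Ly6Glow libraries. The NL libraries exceeded all others, and Ly6Glow exceeded Ly6Ghi in every library. Its log2 fold change was −4.80 (edgeR adjusted p = 2.6e-24, SE 0.060) in Ly6Ghi against NL, the largest fall of any member, −3.62 (edgeR adjusted p = 3.3e-23, SE 0.055) in Ly6Glow against NL and 1.18 (edgeR adjusted p = 1.1e-10, SE 0.086) in Ly6Glow against Ly6Ghi. *Cmpk2*, a mitochondrial nucleotide kinase whose gene lies beside *Rsad2* (the pair spans 37.1 kb of chromosome 12), fell in both tumor-lung groups, to log2 values of −1.36 and −1.84 against NL. Unlike its neighbor it stood at −0.49 in Ly6Glow against Ly6Ghi and was not called. *Bst2*, which encodes the virion-tethering protein tetherin, fell likewise (−1.91 and −1.96), with overlapping tumor-lung groups at −0.051, or 0.015 with DESeq2 size factors. *Isg20*, an RNA exonuclease, was called lower in Ly6Ghi against NL (−1.53) and higher in Ly6Glow against Ly6Ghi (0.96), and its −0.57 in Ly6Glow against NL was not called, but was without NL 2 (−0.61), with upper-quartile scaling (−0.76), with at least 10 counts in every library (−0.75) and on FPKM (−1.24). *Samhd1*, which depletes the nucleotides that viruses need, had the highest FPKM of these effectors, 429.8, 323 and 411 in NL, Ly6Ghi and Ly6Glow. It was called higher in Ly6Glow against NL at 0.66, not called with upper-quartile scaling (0.47) and turning to −0.064 on FPKM, and higher against Ly6Ghi at 0.59, a call that ended with no filter on low counts (0.57) and on FPKM (0.34).

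The *Ifit1* and *Rsad2* promoters are shown because *Rsad2* had the largest fall of the members and *Ifit1* is always given with values per library. *Ifit1* lies on the plus strand, with the window at chr19:34640639-34640938, and *Rsad2* on the minus strand, at chr12:26456403-26456702 (GRCm38.p6, RefSeq, 5′ to 3′ along the gene). Capitals mark ISRE cores, here read from the opposite strand as TTTC, NN and TTTC in a row, with 2 in *Ifit1* and 1 in *Rsad2*.
Ifit1: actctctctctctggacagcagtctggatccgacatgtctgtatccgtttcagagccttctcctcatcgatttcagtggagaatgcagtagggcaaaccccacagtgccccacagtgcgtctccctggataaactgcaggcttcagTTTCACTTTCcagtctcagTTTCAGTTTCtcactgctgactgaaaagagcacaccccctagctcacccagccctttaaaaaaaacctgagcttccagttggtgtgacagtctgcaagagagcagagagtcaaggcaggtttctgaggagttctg
Rsad2: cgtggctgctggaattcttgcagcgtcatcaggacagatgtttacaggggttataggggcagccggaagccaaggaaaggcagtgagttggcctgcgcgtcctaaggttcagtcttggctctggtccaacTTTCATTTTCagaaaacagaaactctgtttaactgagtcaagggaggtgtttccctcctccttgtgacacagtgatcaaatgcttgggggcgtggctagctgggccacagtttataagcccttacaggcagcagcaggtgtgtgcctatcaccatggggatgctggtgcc

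The OAS family makes the oligoadenylates that activate the antiviral nuclease RNase L. The catalytic genes *Oas2* and *Oas3* were not called in Ly6Glow against NL at 0.50 and 0.57, values that turned to −0.19 and −0.13 on FPKM. Both became calls with DESeq2 size factors (0.59 and 0.66), and *Oas3* also without Ly6Glow 3, NL 1 or NL 3 (0.59 each). Between the tumor-lung groups *Oas3* was 0.53 and passed the threshold only with DESeq2 size factors (0.60) and in DESeq2. In Ly6Ghi against NL they stood near 0, at 0.087 and 0.032, and turned to −0.11 and −0.16 with upper-quartile scaling. The OAS-like genes behaved otherwise. *Oasl1*, a regulator of *Irf7* translation, was called lower in Ly6Ghi against NL at −0.91 (edgeR adjusted p = 1.1e-13, SE 0.049) and higher in Ly6Glow against Ly6Ghi at 0.62 (edgeR adjusted p = 9.6e-10, SE 0.052), the latter lost without Ly6Ghi 3 (0.57) and on FPKM (0.37). *Oasl2* was called likewise, at −1.02 (edgeR adjusted p = 2.2e-16, SE 0.039) and 0.92 (edgeR adjusted p = 2.0e-14, SE 0.040).

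Of the 8 regulators and other members, 5 were called lower in Ly6Ghi against NL and 3 in Ly6Glow against NL, beside 36.6% and 40.8% of all tested genes, and 7 and 5 on log2(FPKM + 1). *Ifi47*, *Ifi44* and *Xaf1* were called lower in both. *Ifi47*, itself an immunity-related GTPase although its symbol places it among the type I genes, stood at −2.89 and −2.47, in the range of the Gbp and Irg genes. *Ifi44* stood at −2.91 and −3.18. *Xaf1*, which furthers apoptosis, stood at −2.01 and −1.38. It was called higher in Ly6Glow against Ly6Ghi at 0.63, but not without Ly6Ghi 3 (0.52) or on FPKM (0.30). *Rtp4*, a receptor chaperone that dampens the antiviral response, had the largest rise of these genes in Ly6Glow against Ly6Ghi, 1.15 (edgeR adjusted p = 3.9e-14, SE 0.052), and against NL it was lower in Ly6Ghi at −0.83 but not called in Ly6Glow (0.32, or −0.37 on FPKM). *Parp9* and *Parp14*, partner ADP-ribosyltransferase family proteins, were called higher in Ly6Glow against Ly6Ghi at 0.62 and 0.76, and *Parp14* lower in Ly6Ghi against NL at −1.21. *Trim30a*, a restrainer of Toll-like receptor signalling, was called higher in Ly6Glow against NL at 0.99 and against Ly6Ghi at 0.61, the latter lost without Ly6Glow 3 (0.58), and both on FPKM (0.28 and 0.37). With the settings of the report *Ifi35* was called in none of the 3 comparisons (−0.42, −0.26 and 0.15), and the last of these turned to −0.075 on FPKM.

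The 4 IFITM genes were called higher in both comparisons with NL, where most other members lay below NL. Their proteins sit in cell membranes and hinder the entry of viruses, and *Ifitm6*, *Ifitm1* and *Ifitm2* were the 3 most abundant members by mean FPKM over the 9 libraries. In NL alone they had means of 497, 478 and 645, and *Ifitm3* had 537. *Ifitm6* stood at 182, 189 and 189 CPM in the NL libraries, 2305, 2247 and 2282 CPM in the Ly6Ghi libraries and 1834, 1863 and 1838 CPM in the Ly6Glow libraries. *Ifitm1* stood at 222, 194 and 213 CPM in the NL libraries, 1169, 1149.8 and 1117 CPM in the Ly6Ghi libraries and 2390.3, 2523 and 2306 CPM in the Ly6Glow libraries. Every tumor-lung library exceeded every NL library for both, with Ly6Ghi highest for *Ifitm6* and Ly6Glow highest for *Ifitm1*. In Ly6Ghi and Ly6Glow against NL the log2 fold changes were 3.61 (edgeR adjusted p = 2.6e-26, SE 0.031) and 3.30 (edgeR adjusted p = 4.4e-26, SE 0.031) for *Ifitm6*, and 2.45 (edgeR adjusted p = 5.6e-22, SE 0.043) and 3.52 (edgeR adjusted p = 2.7e-24, SE 0.045) for *Ifitm1*. *Ifitm2* stood at 314, 274 and 294 CPM in the NL libraries, 1133, 1097 and 1088 CPM in the Ly6Ghi libraries and 1514, 1513 and 1403 CPM in the Ly6Glow libraries. *Ifitm3*, the best studied entry inhibitor, stood at 249, 237 and 251 CPM in the NL libraries, 669, 667 and 619 CPM in the Ly6Ghi libraries and 745, 751 and 713 CPM in the Ly6Glow libraries. NL was lowest for each of them without overlap. *Ifitm2* reached 1.91 (edgeR adjusted p = 1.8e-20, SE 0.042) and 2.33 (edgeR adjusted p = 7.7e-22, SE 0.043), and *Ifitm3* 1.41 (edgeR adjusted p = 3.4e-19, SE 0.037) and 1.58 (edgeR adjusted p = 3.9e-20, SE 0.037), in Ly6Ghi and Ly6Glow against NL. Between the tumor-lung groups, *Ifitm1* alone of the 4 was called, at 1.07 (edgeR adjusted p = 1.8e-15, SE 0.040). *Ifitm3* differed by 0.18 there, turning to −0.060 on FPKM.

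In both comparisons with NL, sums over the type I members ran opposite to their medians. Summed type I CPM was 5816 ± 68.6 in NL, 8544 ± 91.5 in Ly6Ghi and 11626 ± 218 in Ly6Glow (SD, n = 3). Without the IFITM genes it was 4879.8, 3363 and 5161. Of the 33 other tested type I genes, 23 were called lower and 1 higher in Ly6Ghi against NL (36.6% and 26.3% of all genes), 15 lower and 5 higher in Ly6Glow against NL (40.8% and 28.7%), and 21 higher in Ly6Glow against Ly6Ghi (9.29%). On summed FPKM the IFITM genes made 2157 in NL, 9202 in Ly6Ghi and 9576 in Ly6Glow, and the IFIT genes 91.3, 5.43 and 7.13. Without the IFITM genes summed type I FPKM was 2635, 1108 and 1514. In Ly6Ghi both sums were thus above NL with the IFITM genes and below it without them, while in Ly6Glow the sum without them was above NL on CPM and below it on FPKM.

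The *Ifitm3* and *Ifitm6* promoters are shown because *Ifitm6* had the largest rise in Ly6Ghi against NL and *Ifitm3* is always given with values per library. Both genes were higher in the tumor-bearing lung, against the direction of *Isg15*, *Ifit1* and *Rsad2*. Both lie on the minus strand of chromosome 7, with windows at chr7:141010695-141010994 and chr7:141016843-141017142 (GRCm38.p6, RefSeq, 5′ to 3′ along the gene). Capitals mark 2 ISRE cores and 1 GAS core in *Ifitm3*, where the GAS core overlaps the second ISRE core, and 1 GAS core in *Ifitm6*.
Ifitm3: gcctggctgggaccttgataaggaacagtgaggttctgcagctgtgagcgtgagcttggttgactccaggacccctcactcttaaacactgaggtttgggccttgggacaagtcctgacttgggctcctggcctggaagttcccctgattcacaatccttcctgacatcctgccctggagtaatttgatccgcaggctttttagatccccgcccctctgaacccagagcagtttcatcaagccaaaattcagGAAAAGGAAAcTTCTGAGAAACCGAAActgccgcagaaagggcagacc
Ifitm6: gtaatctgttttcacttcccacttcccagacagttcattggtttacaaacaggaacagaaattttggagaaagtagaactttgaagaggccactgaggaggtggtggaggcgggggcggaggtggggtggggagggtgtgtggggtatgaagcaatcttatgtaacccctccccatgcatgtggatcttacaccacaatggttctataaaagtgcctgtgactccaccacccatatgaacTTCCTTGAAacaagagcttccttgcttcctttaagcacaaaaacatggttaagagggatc

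The 7 interferon-inducible GTPases, which attack the vacuoles and membranes of intracellular microbes, moved in the same direction in each comparison with NL. *Gbp2* stood at 371, 384 and 386 CPM in the NL libraries, 83.2, 85.0 and 86.3 CPM in the Ly6Ghi libraries and 198, 194 and 192 CPM in the Ly6Glow libraries. *Irgm1*, a regulator of the Irg GTPases and of autophagy, stood at 238, 239 and 245 CPM in the NL libraries, 38.5, 37.1 and 37.2 CPM in the Ly6Ghi libraries and 69.4, 65.2 and 63.0 CPM in the Ly6Glow libraries. The 3 groups of libraries were separate for both genes, NL highest and Ly6Ghi lowest. *Gbp2* had log2 fold changes of −2.16 (edgeR adjusted p = 2.1e-22, SE 0.036), −0.97 (edgeR adjusted p = 3.8e-17, SE 0.034) and 1.20 (edgeR adjusted p = 7.6e-17, SE 0.037) in Ly6Ghi against NL, Ly6Glow against NL and Ly6Glow against Ly6Ghi, and *Irgm1* of −2.68 (edgeR adjusted p = 1.5e-22, SE 0.043), −1.87 (edgeR adjusted p = 1.5e-20, SE 0.041) and 0.81 (edgeR adjusted p = 6.1e-12, SE 0.050). The largest fall was that of *Iigp1*, −3.68 and −3.50 against NL, and its tumor-lung groups overlapped (0.19, or −0.046 on FPKM). *Gbp3* fell to log2 values of −2.75 and −2.47 against NL and was not called between the tumor-lung groups (0.28). *Gbp5*, a promoter of inflammasome activity, *Gbp7* and *Igtp* were called in all 3 comparisons, at 0.90, 0.84 and 0.80 in Ly6Glow against Ly6Ghi. Summed GTPase CPM was 1379 ± 37.6 in NL, 282 ± 4.41 in Ly6Ghi and 528 ± 9.83 in Ly6Glow (SD, n = 3).

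The *Gbp2* and *Irgm1* promoters are shown because these are the GTPase genes always given with values per library. All 6 GTPase members with a promoter window held an ISRE core. *Gbp2* lies on the plus strand, at chr3:142620413-142620712, and *Irgm1* on the minus strand, at chr11:48871371-48871670 (GRCm38.p6, RefSeq, 5′ to 3′ along the gene). Capitals mark 1 ISRE core in *Gbp2* and 2 overlapping ISRE cores in *Irgm1*.
Gbp2: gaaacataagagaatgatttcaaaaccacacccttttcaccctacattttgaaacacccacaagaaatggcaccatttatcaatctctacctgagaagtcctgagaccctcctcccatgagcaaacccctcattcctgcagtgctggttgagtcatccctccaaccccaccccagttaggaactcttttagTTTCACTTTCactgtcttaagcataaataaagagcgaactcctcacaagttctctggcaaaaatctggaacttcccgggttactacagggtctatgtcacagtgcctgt
Irgm1: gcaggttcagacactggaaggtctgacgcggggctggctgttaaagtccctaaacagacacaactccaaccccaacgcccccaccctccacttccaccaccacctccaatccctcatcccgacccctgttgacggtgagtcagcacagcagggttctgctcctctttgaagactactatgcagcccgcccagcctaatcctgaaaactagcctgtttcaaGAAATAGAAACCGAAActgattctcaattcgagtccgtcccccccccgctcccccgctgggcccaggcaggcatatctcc

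**Figure D4:**
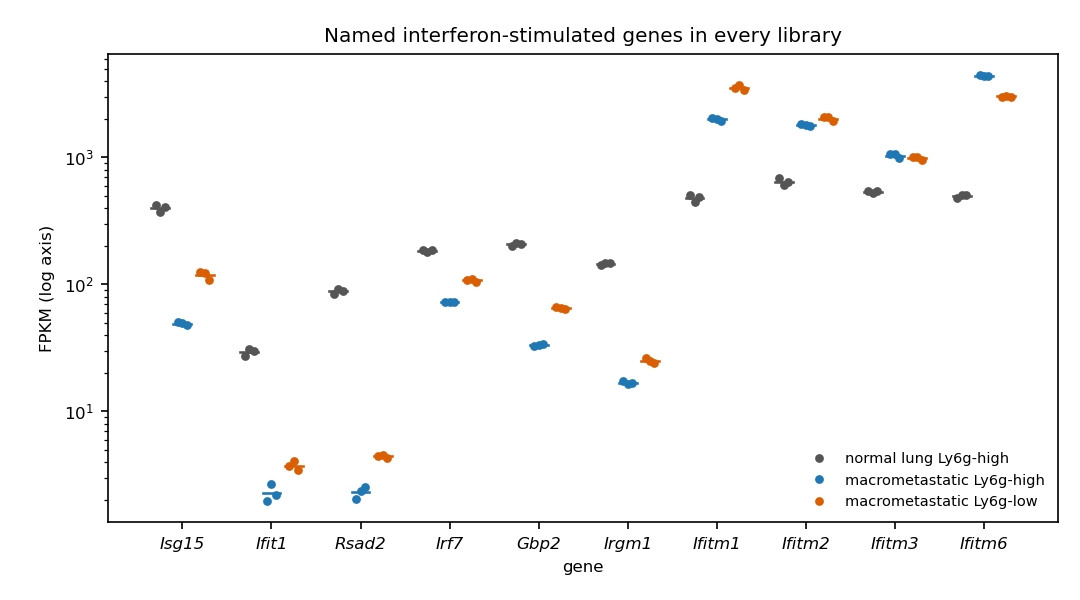
FPKM (log axis) of named members in every library, with points for libraries, short lines for group means and colors for NL, Ly6Ghi and Ly6Glow. The IFITM genes lie above 400 FPKM in all groups, and *Ifit1* and *Rsad2* lie under 10 FPKM in both tumor-lung groups.

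Several families lie in clusters, so their members are not independent by position. The 4 IFIT genes lie within 99.5 kb of chromosome 19, the 4 IFITM genes within 62.1 kb of chromosome 7 and the 4 Gbp members within 141 kb of chromosome 3 (mm10). Close relatives also share sequence. Of the 47 members, 10 had over 10% of their 50-base transcript words in another gene, led by *Oas1a* (57.6%, mostly with *Oas1g*), *Ifit3* (51.2%), *Ifitm2* (48.5%) and *Ifit3b* (45.0%). The others were *Ifi208*, *Herc6*, *Rtp4*, *Gbp7*, *Igtp* and *Ifitm3*. Values of these 10 are uncertain to the extent that reads were divided between copies, and how multiply mapping reads were treated is not given in the sources used here.

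Interferon genes themselves were scarcely detected. Of 21 interferon ligand genes, 5 had values and 1 was tested, *Ifng*, which encodes interferon gamma. It averaged 1.75 ± 0.170 CPM in NL, 0.899 ± 0.483 in Ly6Ghi and 0.598 ± 0.263 in Ly6Glow (SD, n = 3). These levels are low in all groups. *Ifng* was called lower at −0.96 (edgeR adjusted p = 0.0057, SE 0.30) in Ly6Ghi against NL and −1.54 (edgeR adjusted p = 3.9e-04, SE 0.35) in Ly6Glow against NL, and it was named after its values were seen. T and NK cell markers had the same order of groups (means of 108.5, 64.3 and 43.3 summed CPM in NL, Ly6Ghi and Ly6Glow). The cell source of *Ifng* was not tested. Interferons made by lung cells outside the sorted libraries were not measured.

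On the TMM scale most receptor genes were called higher in the tumor-bearing lung. Of 6 receptor chains, 4 were called higher in Ly6Ghi against NL, 6 in Ly6Glow against NL and 2 in Ly6Glow against Ly6Ghi. On log2(FPKM + 1), 3 kept a call in each comparison with NL (*Ifngr1*, *Ifngr2* and *Ifnlr1*) and *Ifnar2* did not (0.45 and 0.52). Beside these counts, and beside the lists that follow, all tested genes were called higher and lower at 26.3% and 36.6%, 28.7% and 40.8%, and 9.29% and 15.9% in the 3 comparisons in the same order. For all genes on log2(FPKM + 1) the shares were 10.1% and 36.4%, 7.97% and 45.6%, and 2.27% and 13.6%. The interferon gamma receptor chain *Ifngr1* stood at 119, 115 and 117 CPM in the NL libraries, 364, 374 and 364 CPM in the Ly6Ghi libraries and 474, 472 and 482 CPM in the Ly6Glow libraries. The groups were separate, NL lowest. *Ifngr1* reached 1.65 (edgeR adjusted p = 4.1e-21, SE 0.033) in Ly6Ghi and 2.02 (edgeR adjusted p = 1.4e-22, SE 0.033) in Ly6Glow against NL, and its partner *Ifngr2* 1.44 and 1.99. Of the type I chains, *Ifnar2* was called higher in both groups against NL (0.95 and 1.27), and *Ifnar1* in Ly6Glow against NL (0.64, turning to −0.061 on FPKM) and against Ly6Ghi (0.68, or 0.43 and not called on FPKM). The lambda receptor chain *Ifnlr1*, typical of epithelium and neutrophils, was called higher at 2.22 and 2.17 against NL. *Il10rb*, shared with the interleukin-10 receptor, was called higher in Ly6Glow against NL (0.98) and against Ly6Ghi (0.70), and in neither on FPKM (0.28 and 0.45).

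Of 10 relays between receptor and gene, 4 were called higher and 2 lower in Ly6Ghi against NL, 6 and 2 in Ly6Glow against NL, and 2 and 1 in Ly6Glow against Ly6Ghi. On log2(FPKM + 1) these counts were 0 and 3, 1 and 3, and 0 and 1. *Stat2*, a subunit of ISGF3 that is also counted among the other interferon-stimulated genes, was called in none of the 3 comparisons. It differed by −0.42 in Ly6Ghi against NL and 0.40 in Ly6Glow against Ly6Ghi. The first value was −0.61 with upper-quartile scaling and −0.84 on FPKM, both past the threshold. Against NL, *Stat2* in Ly6Glow stood at −0.014, or 0.076 with DESeq2 size factors and −0.69, past the threshold in the lower direction, on FPKM. *Jak1*, a kinase of all interferon receptors, was called higher in Ly6Glow against NL at 1.01 (0.32 and not called on FPKM), and *Jak2*, which serves the gamma receptor, in all 3 comparisons (0.65, 1.35 and 0.71), of which Ly6Glow against NL was kept on FPKM (0.64). *Tyk2*, the type I receptor kinase, was called in none (0.36, 0.14 and −0.22), and the values against NL turned to −0.10 and −0.52 on FPKM. *Irf8*, a factor of monocyte and dendritic cell fate that restrains granulocyte output, was called lower in all 3 at −2.33 (edgeR adjusted p = 3.3e-20, SE 0.053), −3.28 (edgeR adjusted p = 1.5e-21, SE 0.063) and −0.96 (edgeR adjusted p = 8.1e-10, SE 0.079). *Irf2bp2*, a corepressor bound to *Irf2*, was called higher against NL (0.98 and 1.21), but not on FPKM (0.50 and 0.50).

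Among 10 feedback inhibitors, 4 were called higher and 1 lower in Ly6Ghi against NL, and 6 and 2 in Ly6Glow against NL. In Ly6Glow against Ly6Ghi the counts were 2 and 0. There, 0 were called lower by DESeq2, and 4 were lower at an unadjusted p under 0.05 with no fold-change threshold. The counts on log2(FPKM + 1) were 2 and 2, 2 and 2, and 0 and 1. The phosphatase genes *Ptpn6* (SHP-1) and *Ptpn1* reached 1.50 and 1.08 in Ly6Ghi and 1.39 and 1.30 in Ly6Glow against NL, and the STAT inhibitor gene *Pias3* 1.09 and 0.88. On log2(FPKM + 1), *Ptpn6* and *Ptpn1* kept these calls (0.61 and 0.59 for *Ptpn1*) and *Pias3* did not (0.55 and 0.15). *Socs3*, a receptor-bound inhibitor of cytokine signalling, was called higher in Ly6Glow against Ly6Ghi at 0.81 (edgeR adjusted p = 4.0e-13, SE 0.042), and in Ly6Glow against NL at 0.72, or −0.0012 on FPKM. *Ptpn2*, a phosphatase of nuclear STATs, was called higher in Ly6Glow against Ly6Ghi at 0.61, lost without Ly6Glow 3 (0.56). On FPKM neither *Socs3* (0.57) nor *Ptpn2* (0.34) was called in that comparison.

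**Figure D5:**
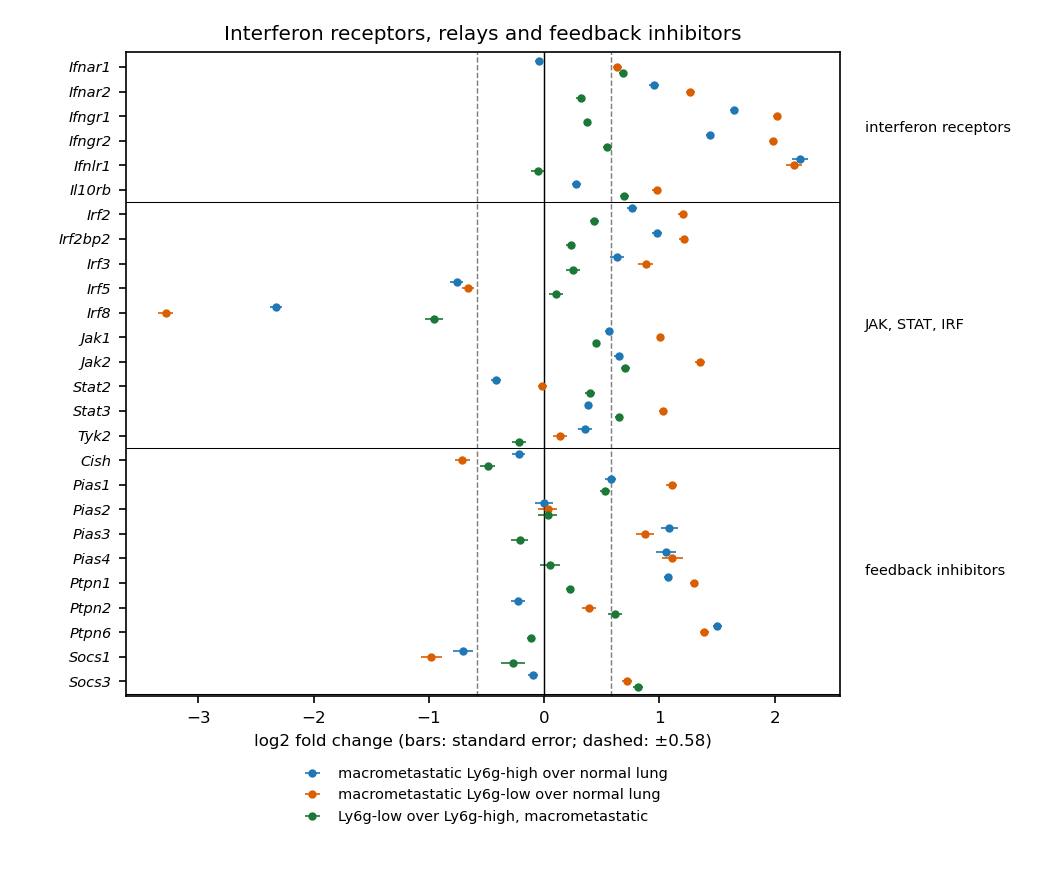
Log2 fold changes with standard errors (horizontal axis) of interferon receptors, relays and feedback inhibitors (vertical axis) in the 3 comparisons, with dashed lines at ±0.58. All 6 receptor genes lie above 0 in Ly6Glow against NL, where *Ifnar1* and, among the others, *Tyk2*, *Socs3*, *Ptpn2* and *Pias2* turn below 0 on FPKM.

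In the pathways that sense nucleic acids and start interferon production, 2 of 17 genes were called higher and 6 lower in Ly6Ghi against NL, 5 and 5 in Ly6Glow against NL, and 1 and 3 in Ly6Glow against Ly6Ghi. With log2(FPKM + 1) they were 1 and 7, 1 and 9, and 1 and 4. *Mavs*, the mitochondrial adaptor of RIG-I and MDA5, was lower in each, at −1.73 (edgeR adjusted p = 1.6e-12, SE 0.11), −2.94 (edgeR adjusted p = 8.5e-15, SE 0.14) and −1.21 (edgeR adjusted p = 4.8e-06, SE 0.18). With it, *Tlr3* (−0.75) and *Tlr9* (−0.63) made up the 3 lower calls in Ly6Glow against Ly6Ghi, and both were named after their values were seen and were not called on log2(FPKM + 1) (−0.24 and −0.32) but were on log2(FPKM + 0.1) (−0.73 and −0.76). The *Tlr9* call also ended with DESeq2 size factors (−0.56). *Myd88*, the adaptor of most Toll-like receptors, was called higher against NL at 1.05 and 1.42, also on FPKM (0.58 and 0.72). *Trim25*, the ubiquitin ligase of RIG-I, was called higher in Ly6Glow against Ly6Ghi at 0.89 (edgeR adjusted p = 8.7e-16, SE 0.032).

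Other interferon-stimulated genes, outside the 47, were called lower more often than higher in both comparisons with NL. Of 80 tested, 41 were called lower and 8 higher in Ly6Ghi against NL, 39 and 14 in Ly6Glow against NL, and 8 lower and 12 higher in Ly6Glow against Ly6Ghi. On the log2(FPKM + 1) scale 54 were called lower and 4 higher, 51 and 5, and in the last comparison 10 lower and 3 higher, so that its balance turned. *Batf2*, a transcription factor induced by interferon gamma, stood at −4.37 and −4.64 against NL, and *Cxcl9*, a chemokine that draws T cells, at −4.34 and −4.41. The largest rises in Ly6Glow against Ly6Ghi among those with at least 10 CPM were *Trim30b* (1.02) and the helicase gene *Ddx60* (0.97). Of 14 other interferon-inducible GTPases tested, 12 were called lower in Ly6Ghi and 10 in Ly6Glow against NL, with *Tgtp1* at −4.65 and −4.68 and *Gbp10* at −4.23 and −4.46. In Ly6Glow against Ly6Ghi, 4 were called higher and 1 lower, with *Gbp2b* at 1.11 and *Irgm2* at 0.92. These 2 lists had medians of −0.67 and −2.84 in Ly6Ghi against NL, and 0.23 and 0.17 in Ly6Glow against Ly6Ghi.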

How the data were processed

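The authors deposited an estimated count and an FPKM value per gene and library. Their processing notes name the mm10 assembly, and the aligner is not given in the sources used here. Blank values (3739 genes) were left out. Estimated counts, of which 37.9% were whole numbers, were rounded, filtered with filterByExpr, scaled by TMM and fitted over 9 libraries in edgeR 4.0.16 (R 4.3.3), whose quasi-likelihood test gave p-values adjusted by Benjamini-Hochberg. The edgeR fit and its calls were tested on simulated counts, while the alternatives, promoter search and shared-sequence count were not. DESeq2 1.42.0, limma 3.58.1 on log2 FPKM, other scalings, filters, thresholds, a replicate block and each library left out served as alternatives. The members and the pathway and marker lists were chosen with earlier results of these data known. Values per library are given for *Isg15*, *Irf7*, *Ifit1*, *Ifitm3*, *Gbp2* and *Irgm1*, for the 3 largest and 3 smallest log2 fold changes per comparison among called members with at least 10 CPM in the higher group, and for the 3 most abundant members by FPKM. Of the pathway lists, receptors, *Jak1*, *Tyk2* and *Stat2* were always named, and of each other list the 2 largest changes among called genes with at least 10 CPM. *Mx1* and *Mx2* were not analysed here. List genes absent from the tables or without values were left out, and apart from these 1 pathway gene and 1 marker are not reported here.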

Additional observations from a re-analysis of the deposited data

How the results depend on the processing

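In Ly6Ghi against NL, 34 or 35 of 35 member calls were kept under every alternative except a log2 threshold of 1, which kept 30. In Ly6Glow against NL, 26 to 31 of 31 were kept, or 20 with that threshold. In Ly6Glow against Ly6Ghi, 25 to 27 of 27 were kept on count scales, 7 on log2(FPKM + 1), 12 on log2(FPKM + 0.1) and 5 with the threshold of 1. No member call turned to a call in the opposite direction. For all shifts between scales the cause was not tested. The NL libraries differ from the others in composition and markers, and their part in those shifts was not tested. Low counts, 4 to 43 per library for *Ifng* and 0 to 9 for *Oas1a*, limit what can be said of those genes. Tumor-lung counts were also low for *Ifi208* (20 to 38), *Ifit3* (20 to 50) and *Ifit3b* (16 to 39), called higher in Ly6Glow against Ly6Ghi. On log2(FPKM + 1) they were not called there (0.24, 0.35 and 0.29). Transcript sharing between relatives and the unnamed source animals limit the rest.

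Apart from fits with 1 library left out, medians moved by more than 1 SD of their deviations between libraries of a group in these cases. Of these, −0.98 and 0.61 for type I genes lie within the leave-one-out ranges given below. In Ly6Ghi against NL the type I median was −0.98 with DESeq2 size factors and in DESeq2, −1.20 with upper-quartile scaling, −0.94 with no filter, −1.18 with at least 10 counts in every library, −1.34 on log2(FPKM + 1) with or without its filter and −1.46 on log2(FPKM + 0.1). The GTPase median was −2.87 with upper-quartile scaling, −2.85 with at least 10 counts, −2.95 on log2(FPKM + 1) with or without its filter and −3.11 on log2(FPKM + 0.1). In Ly6Glow against NL the same alternatives gave type I medians of −0.25, −0.53, −0.31, −0.52, −0.96 and −1.03. GTPase medians there were −1.78 (DESeq2 size factors and DESeq2), −2.06 (upper quartile), −2.05 (at least 10 counts), −2.50 and −2.54 (FPKM + 1 and + 0.1). In Ly6Glow against Ly6Ghi the type I median was 0.69 with DESeq2 size factors and in DESeq2, 0.60 with no filter, 0.61 with at least 10 counts, 0.34 on log2(FPKM + 1) and 0.38 on log2(FPKM + 0.1), and the GTPase median 0.87 (DESeq2 size factors and DESeq2), 0.55 and 0.57 (FPKM + 1 and + 0.1).

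Counts of type I genes moved by more than 1.5 times as follows. With no fold-change threshold, 10 were called higher in Ly6Ghi against NL, 14 higher and 23 lower in Ly6Glow against NL, and 3 lower in Ly6Glow against Ly6Ghi. In Ly6Glow against NL, 5 were called higher with upper-quartile scaling or at least 10 counts, and 4 with a threshold of 1 or on each FPKM scale, where 23 were called lower. In Ly6Glow against Ly6Ghi, 4 were called higher with a threshold of 1, 6 on log2(FPKM + 1) and 9 on log2(FPKM + 0.1), and 2 lower on the last. GTPases called lower in Ly6Glow against NL were 4 with a threshold of 1, and those called higher in Ly6Glow against Ly6Ghi were 1 with that threshold, 1 on log2(FPKM + 1) and 3 on log2(FPKM + 0.1).

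The pathway lists were run through the same alternatives, a choice made after seeing the data. Genes called higher numbered 38 with no threshold, 13 with a threshold of 1, 10 on log2(FPKM + 1) and 12 on log2(FPKM + 0.1) in Ly6Ghi against NL (22 with the settings of the report). In Ly6Glow against NL they numbered 22 with a threshold of 1 and 12 on each FPKM scale (37). In Ly6Glow against Ly6Ghi they numbered 69, 3, 7 and 9 in the order of the first comparison (23), and those called lower 8 with DESeq2 size factors and in DESeq2, 28 with no threshold, 2 with a threshold of 1 and 25 on log2(FPKM + 0.1) (13).

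Among members and pathway genes called with the settings of the report, 11 reversed their direction, all in Ly6Glow against NL on FPKM. On log2(FPKM + 1), with or without its filter, the values were −0.093 for *Ddx58*, −0.021 for *Dhx58*, −0.11 for *Irf9*, −0.064 for *Samhd1*, −0.061 for *Ifnar1* and −0.0012 for *Socs3*, and on log2(FPKM + 0.1) they were −0.097, −0.022, −0.11, −0.065, −0.063 and −0.0012. The other 5 were *Unc93b1* (−0.055 on both), *Tbk1* (−0.057 and −0.058), *Ifi27* (−0.012 on both), *Trim34a* (−0.016 and −0.018) and *Apobec3* (−0.0051 and −0.0057). Uncalled genes above 0 that became lower calls there were *Traf3* (−0.59 and −0.64) and, on log2(FPKM + 0.1), *Pias2* (−0.64) and *Ticam1* (−0.62).

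Leaving out each library in turn gave type I medians of −1.02 to −0.96 in Ly6Ghi against NL, −0.37 to −0.32 in Ly6Glow against NL and 0.61 to 0.65 in Ly6Glow against Ly6Ghi, where 0 to 1 type I genes were called lower. By the 1 SD measure used above, the type I median moved in 6, 7 and 3 of the 9 fits in these comparisons. GTPase medians moved in 0. All GTPase counts were unchanged by leaving out a library. Libraries with the same number did not deviate together (correlations of −0.068 to 0.077), and with the number as a block the member calls were the same 35, 31 and 27, and type I medians −1.01, −0.34 and 0.62, while calls over all genes numbered 8856, 9775 and 3522 in place of 8874, 9809 and 3560.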
